A study of Procotyla fluviatilis with 12 samples.

Results

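Regional gene expression in intact *Procotyla fluviatilis* was measured by RNA-seq in 6 of the 12 libraries of the series, chosen by their titles: 3 libraries of Reg+ uncut tissue (replicates 1, 2 and 3) and 3 of Reg- uncut tissue (replicates 1, 3 and 4). *P. fluviatilis* is a freshwater planarian. Per the labels, Reg+ tissue came from uncut adults at the place where others were amputated in front of the pharynx, a site proficient in regeneration. Reg- tissue came from uncut adults at the place of amputation behind the pharynx, a site deficient in regeneration. All worms were caught in the field and kept at 18 °C for a short time, and each library was made from RNA of 3 pooled worms. The labels name no strain, genotype, drug or RNAi treatment, and give no collection date or age beyond adult. The other 6 libraries are 3 Reg+ amputated and 3 Reg- amputated libraries, taken 24 hours after the cut, and serve below only as a second set of samples of the same 2 places. The labels do not say whether the pools of a group were collected separately, so p-values measure the spread between pools, which may be partly technical.

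In planarians the body axis is kept by gene activity that varies with position, with Wnt signalling highest toward the tail and Wnt inhibitors expressed toward the head. Much of this positional expression lies in muscle cells, while neoblasts, the dividing stem cells, are found through most of the body. Tissue in front of the pharynx and tissue behind it also differ in what they contain, such as the branches of the gut, the nerve cords and, in mature worms, the gonads and copulatory organs. In bulk tissue a lower level can mean fewer cells of a type or less RNA per cell, and the libraries cannot tell these apart. The measured features are contigs of a transcriptome assembled de novo. They carry identifiers and lengths but no gene names in the sources used here, so no role is given to any contig, and the place labels could not be checked against head or tail genes.

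The 6 uncut libraries held 22038256 to 29813088 reads, and 109121 to 115657 contigs had at least 1 read. The number of contigs seen did not separate the regions (exact permutation test, two-sided p = 0.7, n = 3 per region, where 3 against 3 libraries cannot give less than 0.1). Before regions are compared, a feature of the whole series has to be stated. Over the tested contigs, Reg+ uncut libraries had a mean Spearman correlation of 0.941 with Reg- amputated libraries and of only 0.891 with Reg+ amputated libraries of their own place. Reg- uncut libraries correlated at 0.960 with Reg+ amputated libraries and at 0.907 with Reg- amputated libraries. For Reg+ uncut libraries the single pairs overlapped, at 0.893 to 0.964 with Reg- amputated and 0.872 to 0.919 with Reg+ amputated libraries. Reg- amputated libraries correlated with each other at only 0.858 to 0.940. On average libraries of the same place but different treatment were thus less alike than libraries that differed in both place and treatment. An exchange of labels between whole groups cannot be told apart from a difference between the tissues. Every direction given here holds as labelled.

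Among the uncut libraries themselves the regions were apart. Libraries of the same region correlated at 0.944 to 0.966 in Reg+ and at 0.959 to 0.971 in Reg-, and the 9 pairs from different regions at 0.873 to 0.918. In pairs of the same region, 0.530% to 1.49% of contigs at a pair mean of 1 CPM or more (read count scaled to library size) stood at least 4-fold apart. In pairs from different regions it was 2.74% to 7.16%. On the first principal component, with 62.5% of the variance, the Reg+ libraries lay between 75.9 and 138 and the Reg- libraries between -125 and -78.9. The second, with 16.4%, mainly set Reg+ uncut replicate 3 (95.4) apart from Reg- uncut replicate 1 (-69.3) and Reg+ uncut replicate 2 (-54.7).

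**Figure D1:**
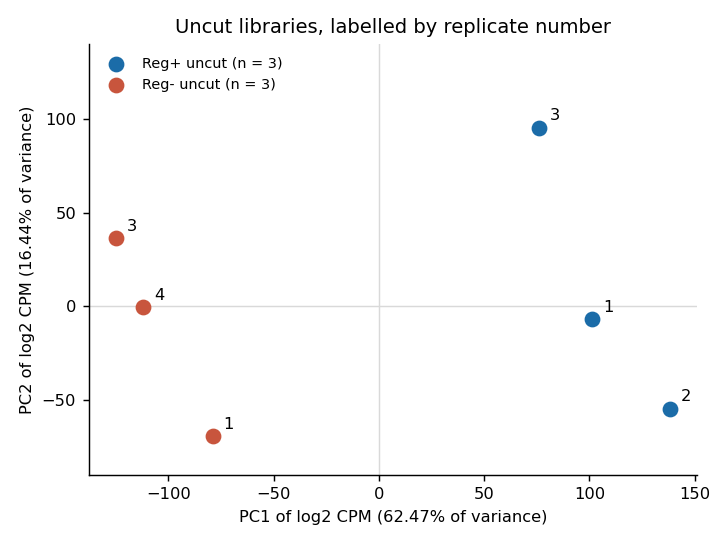
First and second principal components (log2 CPM units) of the 6 uncut libraries over 57478 contigs; each point is 1 library of 3 pooled worms, coloured by region and marked with its replicate number. The regions lie on opposite sides of the first axis, and Reg+ uncut replicate 3 stands highest on the second at 95.4.

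Uncut tissue differed between the regions at 2030 contigs, or 3.53% of the 57478 contigs with at least 10 reads in 3 or more of the 6 libraries (edgeR quasi-likelihood test, Benjamini-Hochberg adjusted p under 0.05, two-sided). Of these, 1146 (1.99% of the tested contigs) were higher in Reg+ and 884 (1.54%) were higher in Reg-. Which direction held more calls depended on the setting, with 1573 in Reg+ and 1737 in Reg- by DESeq2, 1519 and 1555 with no filter on low counts, and 1556 and 3754 without Reg+ uncut replicate 3. The libraries of the regions did not overlap in CPM at any of the 2030 called contigs, and did not overlap at 24.2% of all tested contigs. Most contigs were alike in level: the median size of the log2 fold change over all tested contigs was 0.28, and 52189 contigs differed by less than 2-fold. Calls were thinner among rare contigs, at 1.92% of those under 1 CPM, and rose to 6.11% of those at 100 CPM or more. One gene may be represented by more than 1 contig, so these are counts of contigs and not of genes.

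The 2 directions were not mirror images in size. For contigs called higher in Reg+ the median log2 fold change was 3.58, or 3.60 from summed reads with a region that had no read set at 3 reads. For contigs called higher in Reg- it was -1.92, or -1.94 from summed reads. By summed reads, 385 contigs were at least 64-fold higher in Reg+ and 55 at least 64-fold higher in Reg-. Levels in the lower region differed as well: 365 of the 1146 contigs higher in Reg+ (31.9%) had a mean under 0.1 CPM in Reg- tissue, where 0 reads over the 3 libraries allow up to 0.0344 CPM. Only 68 of the 884 contigs higher in Reg- (7.69%) were that low in Reg+ tissue. The median level in the lower region was 0.380 CPM for contigs higher in Reg+ and 2.06 CPM for contigs higher in Reg-, while in the higher region the medians were 8.70 and 9.77 CPM. This is a comparison of the called contigs with each other, and the difference between the directions was not tested.

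**Figure D2:**
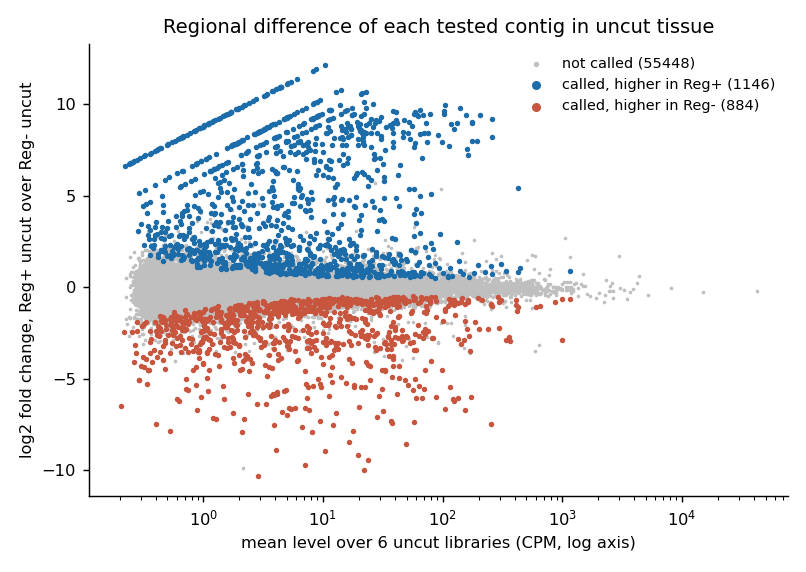
Log2 fold change (Reg+ uncut over Reg- uncut) of each of the 57478 tested contigs against its mean level in CPM over the 6 uncut libraries, on a log axis; blue points are the 1146 contigs called higher in Reg+, red points the 884 called higher in Reg-, grey points the contigs not called. Blue points extend farther from 0 than red ones, and their upper diagonal lines are contigs with no read or a few reads in Reg- tissue, where the size of the fitted fold is set by the model's prior count.

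Contigs with very large folds were short. Of the 385 contigs at least 64-fold higher in Reg+, 76.1% were under 500 nt long and the median was 335 nt. Of the 55 at least 64-fold higher in Reg-, 60% were under 500 nt with a median of 469 nt. Among all tested contigs 41.7% were that short, and among the 839 called contigs that differed less than 4-fold the share was 33.7%. Length also limits precision, since at equal abundance a shorter contig collects fewer reads.

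A strict rule for presence and absence asked for at least 50 reads in each library of one region and no read in any library of the other. It found 23 contigs in Reg+ uncut tissue and 1 in Reg- uncut tissue. The 23 contigs were 200 to 1158 nt long (median 282 nt), had up to 853 reads in a library, and had a median level of 8.63 CPM where they were present. Their calls follow from this rule and are not counted. The number was 53 without Reg+ uncut replicate 1, 53 without Reg- uncut replicate 1 and 50 without Reg- uncut replicate 3, with 50, 52 and 48 of them in Reg+. Over the 3 Reg- libraries together, 0 reads allow a level of up to 0.0344 CPM, counting error only, so a lower level would not have been detected.

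The largest positive folds belonged to contigs with no read in Reg- tissue. The first was contig3830 (247 nt), with 7.66, 27.2 and 27.3 CPM in Reg+ uncut replicates 1, 2 and 3, from 217, 770 and 640 reads. Its level in Reg+ was at least 582-fold higher, with an adjusted p of 0.00439 by edgeR. Replicate 1 was the low library of the 3, and all 3 lay above the Reg- libraries. The longer contig8374 (1158 nt) stood at 15.3, 6.26 and 27.7 CPM, with no read in Reg- tissue, and was at least 449.6-fold higher (adjusted p 0.00629). For contig126409 (227 nt) the Reg+ levels were 6.32, 16.2 and 13.6 CPM against none, a difference of at least 342-fold (adjusted p 0.00174). In contig66832 (281 nt) they were 6.43, 13.2 and 11.2 CPM against none, at least 293-fold higher (adjusted p 0.000858 by edgeR). It was named for its reads in every Reg+ library and none in Reg-. All of these contigs passed the read filter through their Reg+ libraries alone, so their adjusted p are not separate support. The highest Reg+ library was replicate 3 for contig8374 and replicate 2 for contig126409 and contig66832.

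A pair of contigs with equally large fitted folds rested on less even libraries. Of 1305 reads of contig3233 (551 nt) in Reg+ tissue, 853 were in replicate 3, giving 6.29, 9.68 and 36.4 CPM against no read in Reg-. It was at least 466-fold higher (adjusted p 0.0165 by edgeR), with an adjusted p of 0.0551 without Reg+ uncut replicate 2. The levels of contig117810 (275 nt) were 2.12, 13.8 and 16.6 CPM against none, at least 299.9-fold higher (adjusted p 0.0234 by edgeR). Its adjusted p was 0.0969 without Reg+ uncut replicate 2, 0.0549 without Reg- uncut replicate 3 and 0.0631 without Reg- uncut replicate 4. Like the contigs above, both passed the read filter through Reg+ libraries alone, so their adjusted p are not separate support.

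The largest negative fitted folds, those in favour of Reg-, mostly had a few reads in Reg+ tissue. Reads of contig131703 (204 nt) gave 41.3, 41.2 and 48.6 CPM in Reg- uncut replicates 1, 3 and 4 against 0, 0 and 0.128 CPM in Reg+ uncut replicates 1, 2 and 3. Its ratio of summed reads was 1166, with a 95% exact counting interval from 399 to 5657 (adjusted p 8.27e-05 by edgeR). The next, contig55113 (537 nt), stood at 16.4, 15.3 and 11.0 CPM in Reg- and had 1 read in all Reg+ tissue, a summed-read ratio of 1137 (counting interval 204 to 44940) (adjusted p 8.27e-05). These intervals show how little a handful of reads fixes a ratio, although the regions themselves did not come near each other.

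Levels of contig10249 (329 nt) were 34.9, 58.7 and 23.0 CPM in Reg- and 0, 0.0353 and 0.170 CPM in Reg+, a summed-read ratio of 628 (counting interval 269 to 1937) (adjusted p 0.000298 by edgeR). Only contig130914 (230 nt) among the 5 largest negative fitted folds had no read in Reg+ tissue. It had 101, 149 and 242 reads in Reg- replicates 1, 3 and 4, or 3.72, 4.97 and 8.43 CPM, and was at least 153-fold higher there (adjusted p 0.00206). The other named contigs without a Reg+ read were much rarer. Like contig130914, they were chosen for having none and passed the read filter through Reg- libraries alone. The adjusted p of all these contigs are therefore not separate support. The Reg- levels of contig121180 (208 nt) were 0.920, 0.700 and 0.801 CPM, at least 21.45-fold higher than in Reg+ (adjusted p 0.00428). Those of contig41190 (348 nt) were 0.515, 0.934 and 1.71 CPM, at least 28.3-fold higher (adjusted p 0.0230), and its adjusted p lay between 0.0517 and 0.0726 without Reg+ uncut replicate 1 or 2 or Reg- uncut replicate 3 or 4.

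**Figure D3:**
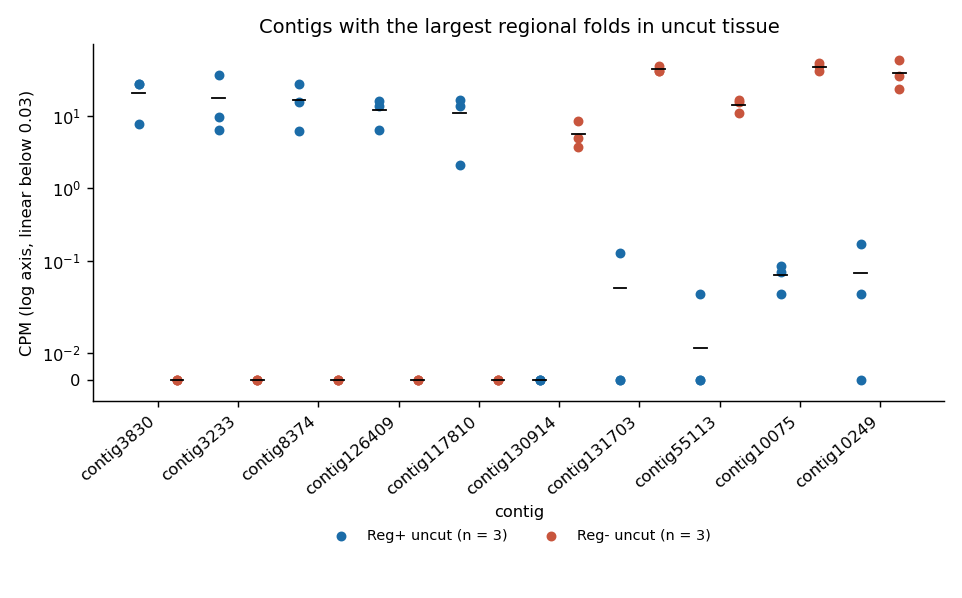
Level in CPM of 10 contigs, the 5 with the most positive fold change and the 5 with the most negative one, in each of the 6 uncut libraries (points) with the mean of each region (line, n = 3); the axis is logarithmic above 0.03 CPM and linear below, and 0 means no read. The 5 contigs on the left have no read in any Reg- library, while 4 of the 5 on the right have a few reads in Reg+ tissue.

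The smallest p belonged to contigs whose regions lay far apart. The lowest p among contigs higher in Reg+ was that of contig4019 (637 nt), at 177, 214 and 235 CPM in Reg+ and 0.221, 0.267 and 0.139 CPM in Reg-. Its mean was 209 ± 29.4 CPM against 0.209 ± 0.0646 CPM (SD, n = 3), a log2 fold change of 9.93 ± 0.25 (standard error) (adjusted p 1.36e-05 by edgeR). It was followed by contig783 (391 nt), with 70.6, 72.7 and 88.4 CPM against 0.552, 0.300 and 0.279 CPM, and a log2 fold change of 7.67 ± 0.26 (standard error) (adjusted p 4.12e-05). The third, contig17986 (937 nt), was less abundant, at 9.32, 11.95 and 10.3 CPM against 0.0736, 0.0334 and 0.0697 CPM. Only 5 reads were behind its Reg- level, so its ratio of 181 had a counting interval from 77.3 to 559.5.

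In favour of Reg-, contig10075 (470 nt) had 53.6, 48.2 and 41.3 CPM in Reg- and 0.0353, 0.0707 and 0.0852 CPM in Reg+ (adjusted p 1.36e-05 by edgeR). It had 5 reads in all Reg+ tissue, a summed-read ratio of 763 (counting interval 327 to 2350.) Levels of contig27728 (330 nt) were 18.5, 20.1 and 23.3 CPM in Reg-, and each Reg+ library had 1 read of it, a summed-read ratio of 551 (counting interval 188 to 2675) (adjusted p 1.36e-05). The more abundant contig6732 (899 nt) stood at 91.6, 129 and 125 CPM in Reg- against 0.636, 0.884 and 0.511 CPM in Reg+, a log2 fold change of -7.39 ± 0.26 (standard error) (adjusted p 4.12e-05). In all 6 of these contigs the lowest library of the higher region was over 100 times the highest library of the other. They were chosen by the smallest p of this comparison, so a wide gap partly follows from the choice.

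Abundant contigs were called more often, with smaller folds. At 100 CPM or more, contigs called higher in Reg+ had 2.47 and those called higher in Reg- had -1.11 as their median log2 fold change, against 3.45 and -2.46 among calls under 1 CPM. Among the 100 contigs with the highest mean CPM, which took 17.9% to 21.3% of the reads of a library, 6 were called, 1 higher in Reg+ and 5 higher in Reg-, a share of 6.0% against the 3.53% of all tested contigs. The most abundant called contig at 2-fold or more was contig147544 (725 nt). It stood at 2029, 1724 and 1511 CPM in Reg- uncut replicates 1, 3 and 4 and at 249, 238 and 210.2 CPM in Reg+ uncut replicates 1, 2 and 3. The log2 fold change was -2.92 with a standard error of 0.15 (adjusted p 0.000111 by edgeR).

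The other abundant contigs higher in Reg- differed by little more than 2-fold. Levels of contig9116 (1097 nt) were 866, 817 and 819 CPM in Reg- and 366, 418 and 369 CPM in Reg+, a log2 fold change of -1.12 ± 0.11 (standard error) (adjusted p 0.00113 by edgeR). Those of contig18239 (1120 nt) were 649, 650.4 and 485 CPM against 263, 236 and 217 CPM (log2 fold change -1.32, adjusted p 0.00267). Regions did not overlap in either contig. Libraries of contig9116 were tight, while Reg- uncut replicate 4 lay below the other Reg- libraries in contig18239. The calls of contig38004 (570 nt) and contig37768 (335 nt) were less firm. Levels of contig38004 were 847, 845 and 937 CPM in Reg- against 418, 529.7 and 354 CPM in Reg+, a log2 fold change of -1.01 (adjusted p 0.0133), and 91.3% of its reads were uniquely assigned. Without Reg+ uncut replicate 1, Reg- uncut replicate 3 or Reg- uncut replicate 4 its adjusted p was 0.0713, 0.0549 and 0.0663. Levels of contig37768 were 578, 558 and 603 CPM against 220.0, 352 and 235 CPM (log2 fold change -1.11, adjusted p 0.0171). Its adjusted p was 0.0674 without Reg+ uncut replicate 1, and 0.0509, 0.061 and 0.0736 without Reg- uncut replicate 1, 3 and 4.

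Among abundant contigs higher in Reg+, 3 had far lower levels in Reg-. Expression of contig148685 (370 nt) was 479, 1095 and 951 CPM in Reg+ uncut replicates 1, 2 and 3 and 19.95, 19.0 and 20.4 CPM in Reg- uncut replicates 1, 3 and 4, a log2 fold change of 5.41 ± 0.33 (standard error) (adjusted p 0.000184 by edgeR). Its Reg- libraries were almost equal while its Reg+ libraries spanned more than 2-fold. Levels of contig11813 (470 nt) were 389.9, 486 and 680.4 CPM in Reg+ against 0.994, 1.33 and 0.313 CPM in Reg- (log2 fold change 9.19, adjusted p 0.000125). Those of contig20822 (776 nt) were 209, 513 and 812 CPM against 2.32, 2.04 and 0.940 CPM (log2 fold change 8.18, adjusted p 0.000428). In all 3 contigs Reg+ uncut replicate 1 was the lowest library of its region.

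The longer abundant contigs higher in Reg+ differed by about 2-fold. For contig4460 (2553 nt) the levels were 548, 665 and 580.1 CPM in Reg+ and 327, 257 and 278 CPM in Reg-, a log2 fold change of 1.06 ± 0.14 (standard error) (adjusted p 0.00478 by edgeR). For contig144294 (2126 nt) they were 363, 504 and 438 CPM against 198, 165 and 175 CPM (log2 fold change 1.28, standard error 0.15, adjusted p 0.00289). Neither contig had overlapping regions.

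The contigs that led the libraries per length were not called. On the RPKM scale (reads scaled to contig length and library size), contig141585 (1572 nt) was at 24840 ± 1720 in Reg+ and 28560 ± 3098 in Reg- tissue (SD, n = 3), and contig505 (1326 nt) at 10300 ± 1399 and 12100 ± 871. Their log2 fold changes were -0.24 with a standard error of 0.17 (adjusted p 0.457 by edgeR) and -0.27 with a standard error of 0.16 (adjusted p 0.383). The next were contig138154 (394 nt), contig138740 (744 nt) and contig20403 (853 nt), with log2 fold changes of -0.59, -0.18 and -0.25 and adjusted p of 0.182, 0.401 and 0.637. Regions of contig138154 did not overlap, at 1509, 1950 and 1113 CPM in Reg+ against 2358, 2074 and 2468 CPM in Reg-. With a replicate block on the 4 libraries numbered 1 and 3, contig141585 and contig138154 were called (adjusted p 0.0185 and 0.00892 by edgeR), and with all 12 libraries and the block they were not (0.174 and 0.144). All 5 had the higher mean in Reg-, but a p that misses the threshold does not show equal levels.

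Pools of one region varied, with larger values of spread in Reg+, a difference that was not tested. Over contigs with a group mean of at least 1 CPM, the median coefficient of variation was 16.2% in Reg+ (40739 contigs) and 12.9% in Reg- (40699 contigs). The highest library was at least 4 times the lowest at 953 contigs in Reg+ and 588 in Reg-. Contigs called higher in Reg+ were less even there, with a median coefficient of variation of 31.7%, than contigs called higher in Reg- were in Reg- tissue (15.2%). A call needs a fold that is large against the spread, and folds were larger among the Reg+ calls. The contrast therefore also depends on how contigs were called. Reg+ uncut replicate 1 was the lowest of the 3 at 766 of the 1146 contigs called higher in Reg+, whose median level was 6.14 CPM in that library against 10.2 and 9.69 CPM in replicates 2 and 3. The matching share over all tested contigs is not given here, so this is not read as a trait of the called contigs. For the 884 contigs higher in Reg-, the medians of the Reg- libraries lay between 9.49 and 10.6 CPM.

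The number and the balance of calls depended on Reg+ uncut replicate 3. Without it the test called 5310 contigs, 1556 with the higher level in Reg+ and 3754 with the higher level in Reg-, so that the larger share moved to Reg-. Among these, 2886 contigs higher in Reg- were not called with all 6 libraries. Their median levels were 2.75 and 2.37 CPM in Reg+ uncut replicates 1 and 2 but 5.77 CPM in replicate 3, against 5.37, 8.51 and 6.86 CPM in Reg- uncut replicates 1, 3 and 4. At 1858 of the 2886 contigs (64.4%) Reg+ uncut replicate 3 lay within or beyond the range of the Reg- libraries, which follows from how they were selected. The count was 1264 without Reg- uncut replicate 3 and 1268 without Reg- uncut replicate 4. In each of the 6 fits that leave out 1 library, 1059 of the 2030 contigs (52.2%) were still called, 693 higher in Reg+ and 366 higher in Reg-.

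The same 2 places were sampled a second time in the amputated libraries, which the uncut comparison does not use. There, 843 of the 57478 contigs (1.47%) differed between Reg+ and Reg- (edgeR quasi-likelihood test on the 6 amputated libraries), 249 (0.433%) higher in Reg+ and 594 (1.03%) higher in Reg-. Without Reg- amputated replicate 3 788 calls favoured Reg+ and 767 favoured Reg-, so the balance rested on that library. Both comparisons called 789 contigs, which is 38.9% of the uncut calls and 93.6% of the amputated calls. At all 789 the direction was opposite, with 558 higher in Reg+ uncut and in Reg- amputated tissue, and 231 the other way round. In these separate fits by edgeR no contig was called in the same direction in both. With all 12 libraries in 1 edgeR fit 2 were, by DESeq2 6 were, and at an unadjusted p under 0.05 in amputated tissue 3 of the 2030 contigs kept their direction while 1562 turned. Of all 57478 tested contigs, 7092 had an unadjusted p under 0.05 in amputated tissue by edgeR. The contigs called higher in Reg+ uncut tissue had a median log2 fold change of -3.24 in amputated tissue, and those called higher in Reg- uncut tissue one of 1.17. The difference between the regional folds of uncut and amputated tissue, tested as an interaction in all 12 libraries, was called at 4659 contigs (8.11%). As labelled, the wound and an exchange of labels between whole groups cannot be told apart as the source of this turn.

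**Figure D4:**
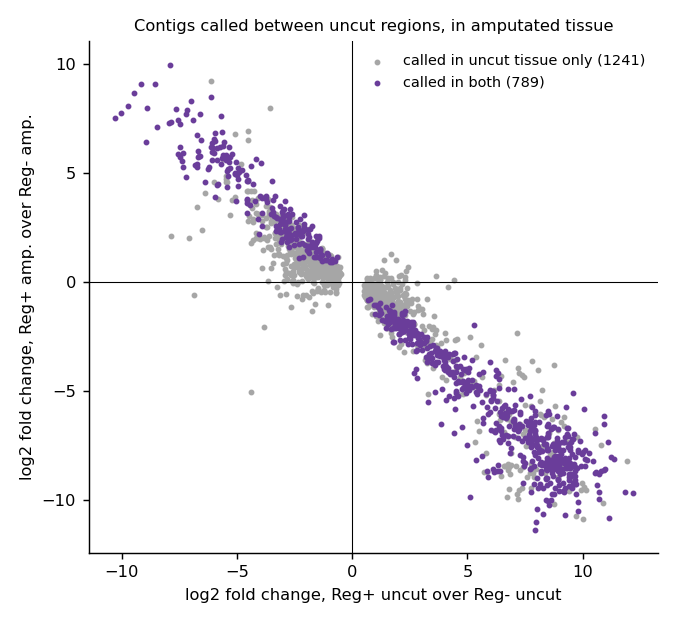
Log2 fold change between Reg+ and Reg- in amputated tissue against that in uncut tissue for the 2030 contigs called in uncut tissue, each axis from its own 6 libraries; purple points are the 789 contigs called in both, grey points the 1241 called in uncut tissue alone. All purple points lie in the quadrants of opposite sign, and 77 of the 2030 contigs have the same sign in both. Over all 57478 tested contigs, which are not shown, 17717 (30.8%) have the same sign in both.

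The named contigs show what this means in levels, here scaled over all 12 libraries. In Reg- tissue contig147544 was at 2018, 1699 and 1497 CPM in uncut replicates 1, 3 and 4 but at 254, 266 and 208 CPM in amputated replicates 1, 2 and 3. In Reg+ tissue it was at 245, 230.5 and 211 CPM uncut and at 1294, 1799 and 1314 CPM amputated. The regional log2 fold change was -2.92 in uncut and 2.60 in amputated tissue (adjusted p 0.00202 by edgeR). In the other direction, contig4019 was at 174, 207 and 236.5 CPM in Reg+ uncut and 0.389, 0.406 and 0.430 CPM in Reg+ amputated tissue. It was at 0.220, 0.263 and 0.138 CPM in Reg- uncut and 85.2, 137 and 214 CPM in Reg- amputated tissue (log2 fold change -8.46 in amputated tissue, adjusted p 0.000948). In both contigs the libraries of Reg+ uncut and Reg- amputated tissue lay on one side and the remaining 6 on the other. Of the 28 named contigs called in uncut tissue, 21 were called in amputated tissue in the opposite direction and none in the same direction. They were picked for large folds, abundance or small p in uncut tissue, so nothing is read from this count beside the 38.9% over all uncut calls and the 1.47% over all tested contigs.

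**Figure D5:**
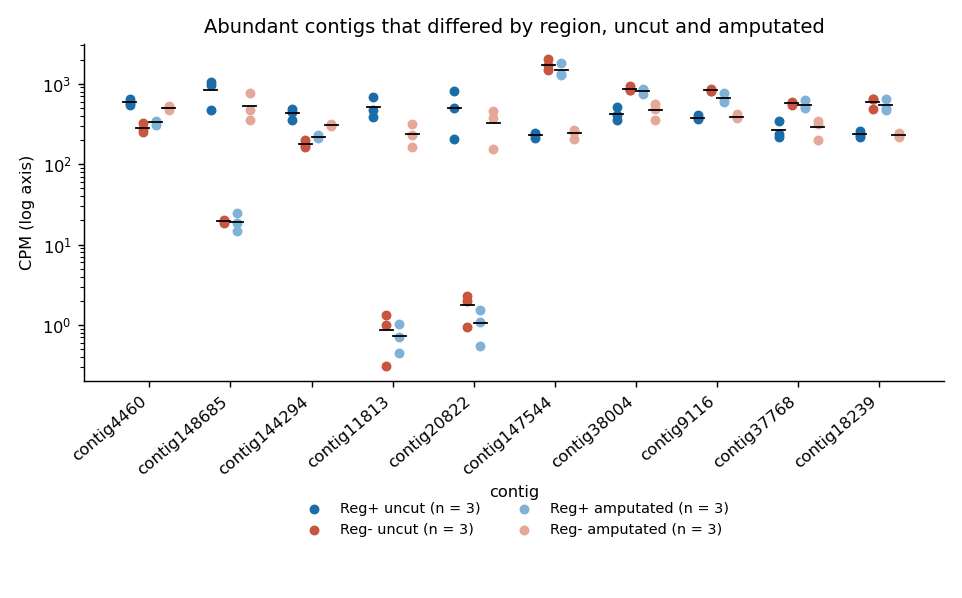
Level in CPM (log axis, scaled over 12 libraries) of the 5 most abundant contigs called at least 2-fold higher in Reg+ uncut tissue (left) and the 5 called higher in Reg- uncut tissue (right); points are single libraries of the 4 groups and lines are means (n = 3 each). On this log axis the mean of Reg- amputated tissue lies nearer to Reg+ uncut than to Reg- uncut tissue in each of the 10 contigs.

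The contigs seen in 1 uncut region only had the reverse order of regions in amputated tissue. Of the 23 contigs present in Reg+ uncut and absent from Reg- uncut tissue, all 23 had at most 5 reads in each Reg+ amputated library, 8 of them no read at all. In Reg- amputated tissue 14 of the 23 had at least 50 reads in every library. The 1 contig of the reverse kind, contig130914, had 499, 155 and 112 reads in Reg+ amputated replicates 1, 2 and 3 and 4, 0 and 0 reads in Reg- amputated replicates 1, 2 and 3. The count of calls in amputated tissue depended on single libraries. Leaving out Reg+ amputated replicate 1, 2 or 3 gave 382, 357 and 478 calls, and leaving out Reg- amputated replicate 2 or 3 gave 517 and 1555. With Reg- amputated replicate 3 left out, 888 contigs were called in both uncut and amputated tissue in opposite directions, and 0 in the same direction.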

How the data were processed

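RNA-seq libraries (TruSeq, sequenced on a HiSeq 2000, per the labels' protocols) were analysed from the deposited tables. Per the file headers, the authors give for each of 149594 contigs its length, total and uniquely assigned read counts, and an RPKM; counts are whole numbers without normalization. The deposited RPKM equal total reads scaled to contig length and library total to within 0.0078 and were recomputed from the counts here. Not given in the sources used here are the aligner, the counting tool and the handling of multiply matching reads. Contigs with at least 10 total reads in 3 or more of the 6 uncut libraries (57478) were tested with edgeR 4.0.16 in R 4.3.3, with TMM scaling (factors 0.9491 to 1.0649) and 1 mean per group fitted to the 6 uncut libraries. The same contigs were tested in the 6 amputated libraries, and the difference between both comparisons (interaction) in all 12. A contig was called at an adjusted p under 0.05. CPM are TMM-scaled. Log2 CPM for correlations and components used a prior count of 2. The standard error is the log2 fold change divided by the square root of F, and is too small where a region has few reads. Bounds set a region without reads at 3 reads over its libraries. Intervals (exact Clopper-Pearson) and bounds cover counting error only. Alternatives included DESeq2 1.42.0.

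On simulated counts with 57478 contigs and the real means, depths and dispersions, the uncut test recovered 20% of 2-fold, 90% of 4-fold, 96% of 8-fold and 100% of 16-fold changes, and 17 of its 170 calls were false. Changed contigs had at least 1 CPM, and 50 were changed at each fold, together a smaller share than the 3.53% called in the data. The share of false calls was above the 0.05 that the adjusted p threshold aims at. Counts were drawn separately for each contig, so shifts shared by many contigs of a library were not simulated. Recovery in the data may therefore differ.

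Replicates differed by more than sampling noise (chi-square per degree of freedom 9.79 to 24.2 in pairs of uncut and 9.68 to 73.1 in pairs of amputated libraries). Named contigs are those with the 5 largest folds in each direction (mean of at least 1 CPM), the 5 most abundant called at 2-fold or more in each direction, the 3 smallest p in each direction, the 5 highest RPKM among contigs of at least 300 nt, and the 3 with most reads in every library among contigs without a read in the other region. In the first and second sets regions must not overlap. The comparison, rules and alternatives were chosen with earlier results of these data known.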

Additional observations from a re-analysis of the deposited data

Results flagged for a closer look

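No search for outlying libraries was made, since each group has only 3. The result given here for a second look is that the difference between Reg+ and Reg- was not the same in uncut and amputated tissue. Tested as an interaction in all 12 libraries by edgeR, it was called at 4659 contigs (8.11% of those tested). The interaction contains the uncut libraries, so its calls among the contigs chosen in them, 1089 of 1146 and 735 of 884, are not independent of that choice.

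Of the 33 named contigs, 29 had a called interaction. A positive value means that Reg+ over Reg- was higher in uncut than in amputated tissue. Among contigs with no read in Reg- uncut tissue the log2 interaction was 21.84 for contig3830, 20.13 for contig3233, 21.48 for contig8374, 19.53 for contig126409, 19.26 for contig117810 and 22.0 for contig66832. Among the other contigs higher in Reg+ uncut tissue it was 18.38 for contig4019, 17.5 for contig11813, 16.42 for contig20822, 15.59 for contig17986, 14.7 for contig783 and 10.18 for contig148685. It was small for the long and abundant contig4460 (1.66) and contig144294 (1.75), whose regional difference in amputated tissue was not called. Among the named contigs called in uncut tissue, that of contig3233, contig9116, contig37768, contig38004 and contig41190 was not called there either.

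Contigs higher in Reg- uncut tissue had negative values. They were -18.29 for contig10249, -18.18 for contig10075, -17.84 for contig130914, -17.82 for contig55113, -17.81 for contig131703, -15.39 for contig27728, -14.75 for contig121180, -12.97 for contig6732 and -9.98 for contig41190. For abundant contigs they were -5.52 for contig147544, -2.56 for contig18239, -2.06 for contig37768, -1.89 for contig9116, -1.83 for contig38004 and -1.27 for contig138154, which was not called in uncut tissue. Where a group has few or no reads, the size of these values is set by the model's prior count.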

How the results depend on the processing

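Against 2030 contigs called between uncut regions, DESeq2 gave 3310 (1573 higher in Reg+) and no filter on low counts 3074 (1519). Leaving out 1 library gave 1264 to 5310 calls. The share higher in Reg+ was 56.4%, and 29.3% without Reg+ uncut replicate 3. The numbers 1 and 3 occur in both groups, but the labels do not say that they mark shared worms or days. Correlations of deviations were 0.020 and 0.474 for equal numbers, and 0.471 for Reg+ uncut replicate 2 with Reg- uncut replicate 1. With numbers 1 and 3 as a replicate block, which leaves little to estimate spread from, 2487 contigs were called (1186 higher in Reg+ and 1301 in Reg-). These included contig141585 (adjusted p 0.0185 by edgeR) and contig138154 (0.00892), which all 12 libraries with the block did not call (0.174 and 0.144). The same 4 libraries without the block, a setting chosen after seeing the data, gave 536. All 12 libraries with a replicate block gave 1648. RLE factors, filterByExpr, uniquely assigned reads, all 12 libraries and robust dispersion gave 1975 to 2066 calls, but contig117810 had an adjusted p of 0.0583 with robust dispersion.

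In amputated tissue 843 calls became 2007 with DESeq2, 2118 with all 12 libraries in the fit, 512 with the replicate block and 357 to 1555 without 1 library. The interaction, 4659 calls, ranged from 2913 to 11669 without 1 library and was 4841 with the replicate block. Contigs seen in 1 region only, 24 in all, numbered 58 at 20 reads per library, 104 with 1 read allowed in the other region, 24 with uniquely assigned reads and 26 to 53 without 1 library. Contigs called in uncut and amputated tissue in opposite directions, 789, numbered 1403 with DESeq2 and 1287 with all 12 libraries in the fit, and those in the same direction, 0, numbered 6 and 2. The cause of these shifts was not tested. All 2030 called contigs kept their sign in the 6 fits without 1 library. This follows from their regions not overlapping in CPM and is no test of the calls.

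Depth limits rare contigs: 0 reads in 1 uncut library allow up to 0.101 to 0.136 CPM.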
